A study of Mus musculus with 12 samples.

Results

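The sterol and fatty acid synthesis genes are 34 genes chosen by symbol for their roles: the enzymes that make cholesterol from acetyl-CoA, the enzymes that make and desaturate fatty acids, and the proteins that regulate them. All 34 were found among the 18190 genes of the deposited FPKM table, and 33 had 1 FPKM or more in at least 3 of the 12 libraries, the condition for testing, which 11052 genes met in all. RNA was sequenced from RAW264.7 cells, a mouse macrophage line. The shDCLK1 line is a monoclonal line with stable shRNA knockdown of Dclk1, which encodes a doublecortin-like kinase, and the control line is a monoclonal line with a negative control shRNA, although its knockdown entry reads "none". Each was untreated or given 500 ng/ml LPS (lipopolysaccharide, the bacterial ligand of TLR4) for 6 h, which makes 4 groups of 3 libraries. Each line being 1 clone, the shRNA and other differences between clones cannot be told apart.

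Sterol and fatty acid synthesis both start from acetyl-CoA. The sterol branch runs through mevalonate, farnesyl diphosphate, squalene and lanosterol to cholesterol, and the fatty acid branch through malonyl-CoA to palmitate, which is then lengthened and desaturated. SREBP-2 (Srebf2) and SREBP-1 (Srebf1) are membrane-bound transcription factors that switch these genes on. SCAP carries them from the endoplasmic reticulum to the Golgi for cleavage when sterols are low, and INSIG proteins hold them back when sterols are high. Their targets carry sterol response elements (SREs), often beside a CCAAT box bound by NF-Y. In macrophages, LPS and interferons are known to change these genes, and Ch25h, which makes 25-hydroxycholesterol, is a known interferon-induced brake on SREBP cleavage.

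Levels are FPKM, which corrects for length and depth, as deposited, and are given as mean ± SD (n = 3). Differences are in log2(FPKM + 1), a scale on which the changes of low genes look smaller than they are. The labels do not say that the 3 libraries of a group were separate cultures, and the spread behind each p may therefore be technical. Depth is unknown. FPKM totals per library ranged from 457695 to 495373, and within-group correlations from 0.993 to 0.996. Dclk1 was at most 0.01 FPKM in any library, so the knockdown could not be checked in these values. Of 9 macrophage markers 8 reached 1 FPKM, among them Cd68 (223 to 379 FPKM) and Spi1 (187 to 296 FPKM), while Mrc1 reached at most 0.23. Others varied widely over the 12 libraries: Cd14 from 146 to 2752 FPKM, Lyz2 from 94.5 to 1013 and Csf1r from 15.5 to 270. Fcgr1 ranged from 31.0 to 200 FPKM and Adgre1 from 9.26 to 56.4. The sums that follow include these markers and are therefore not a measure of macrophage content. The summed macrophage markers were 1082 to 1090 FPKM in untreated control libraries, 3730 to 3773 with LPS, 1738 to 1792 in untreated shDCLK1 libraries and 4401 to 4624 with LPS; their part in the differences below was not tested. Among lymphocyte and neutrophil markers Pax5 reached 1.3 and S100a8 4.37 FPKM. No hepatocyte, fibroblast or epithelial marker reached 1 FPKM in any library. With LPS the median of all tested genes moved by -0.38 log2 units in control cells and -0.29 in shDCLK1 cells, so the direction of small changes depends on the scaling. Median-of-ratios scaling, which sets the typical gene to no change, and quantile normalization are therefore given beside the counts.

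Promoter stretches of members are shown here because they hold the SRE, CCAAT or interferon response motifs searched for. The sequences are from RefSeq on GRCm38.p6 and end before the gene start. Of the 33 tested members 26 had an entry, and the last 250 bases before each annotated start were searched on both strands. Capitals mark TCACNCCA (SRE, where N is any base, shown in Hmgcs1 with the further C of the longer motif), CCAAT (read as ATTGG on the other strand) and, in Ebp only, an interferon-stimulated response element. Hmgcs1 is from chr13:119690171-119690231 (+ strand), Srebf2 from chr15:82147094-82147149 (+ strand) and Msmo1 from chr8:64733718-64733768 (- strand). Fasn is from chr11:120824592-120824647 (- strand), Mvd from chr8:122443437-122443492 (- strand), Mvk from chr5:114444089-114444268 (+ strand) and Ebp from chrX:8193672-8193757 (- strand).
Hmgcs1: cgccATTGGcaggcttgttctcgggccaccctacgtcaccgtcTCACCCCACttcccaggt
Srebf2: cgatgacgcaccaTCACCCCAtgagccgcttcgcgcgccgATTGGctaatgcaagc
Msmo1: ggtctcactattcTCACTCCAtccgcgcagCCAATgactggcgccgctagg
Fasn: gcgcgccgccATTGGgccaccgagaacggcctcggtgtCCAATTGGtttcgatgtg
Mvd: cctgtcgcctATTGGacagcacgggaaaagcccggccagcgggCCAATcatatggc
Mvk: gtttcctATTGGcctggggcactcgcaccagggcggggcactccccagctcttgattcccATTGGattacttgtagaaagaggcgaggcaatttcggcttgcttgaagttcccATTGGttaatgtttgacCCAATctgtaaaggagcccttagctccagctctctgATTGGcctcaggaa
Ebp: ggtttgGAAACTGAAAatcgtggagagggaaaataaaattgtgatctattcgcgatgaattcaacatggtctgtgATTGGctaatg

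CCAAT was found in 20 of the 26 members (76.9%), against 37.5% of all 27025 genes with an entry and 41.5% of the tested ones. The SRE motif TCACNCCA was found in 3 members, Hmgcs1, Srebf2 and Msmo1 (11.5%, against 4.20% of all genes and 4.10% of the tested ones), and the longer TCACNCCAC in Hmgcs1 alone (3.85%, against 1.22% and 1.23%). Mvk held 5 CCAAT boxes in the stretch shown, and in Fasn a CCAAT overlaps an ATTGG in the run CCAATTGG. The interferon-stimulated response element was in Ebp alone (3.85%, against 3.46% of all genes and 3.56% of the tested ones). The E-box TCACGTGA was in 0 members (0.907% of all genes and 1.96% of the tested ones), and a loose NF-κB pattern was in 23 (88.5%, against 48.7% of all genes and 65.9% of the tested ones). These are letter matches in a short window, and genes with several annotated starts had more windows to match in.

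The first question was how LPS changed these genes in control cells. Nearly the whole set fell, the desaturases Scd2, Scd1 and Fads2 by the most, while the cholesterol-esterifying enzyme Soat1 and the mevalonate entry enzyme Hmgcs1 rose. Of the 33 tested members 30 were lower and 2 higher at a limma adjusted p under 0.05, against 62.1% of all tested genes lower and 24.8% higher. The median change was -0.89 log2 units, against -0.38 for all tested genes, and 14 members (42.4%) were lower by 1 log2 unit or more, as 21.6% of all tested genes were. In 32 members the libraries of the groups did not overlap, as in 87.8% of all tested genes. After median-of-ratios scaling 24 were lower and 7 higher, and after quantile normalization 25 and 6. Of all 11052 tested genes 4679 were lower and 4767 higher after the first scaling, and 4960 and 4376 after the second. In bulk RNA, fewer cells of a type and less RNA per cell cannot be told apart.

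**Figure D1:**
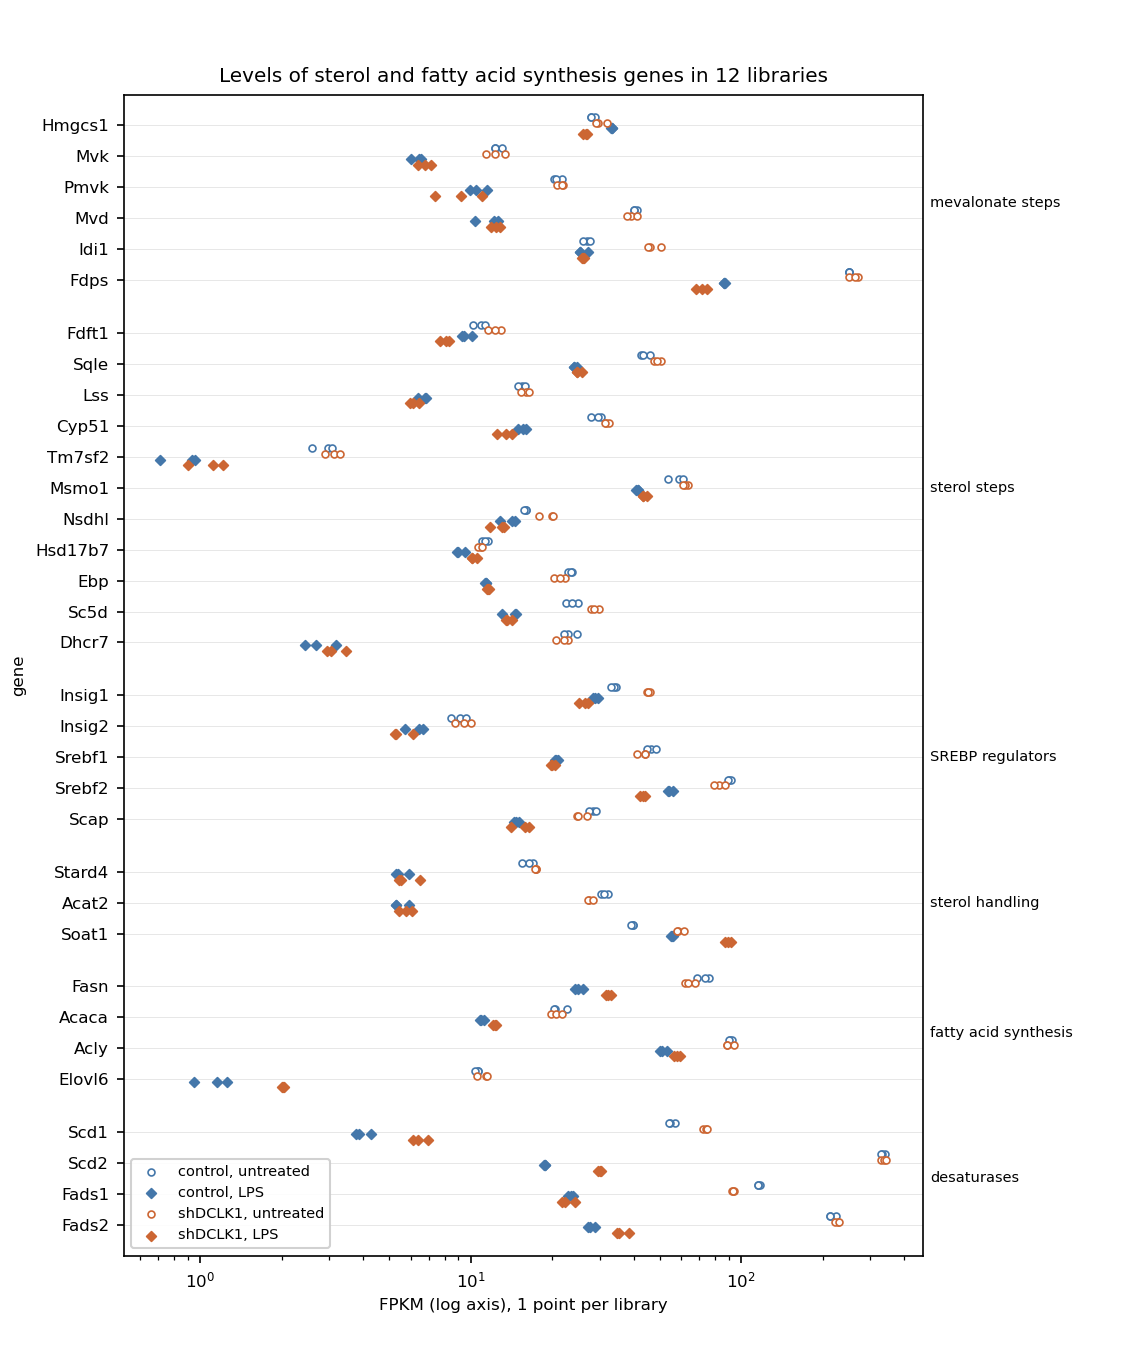
FPKM (log axis) of the 33 tested genes, grouped by role, with 1 point per library; circles are untreated and diamonds LPS-treated libraries, blue control and orange shDCLK1 cells. The desaturase Scd2 sat between 329 and 344 FPKM untreated and between 18.6 and 30.3 with LPS, whereas the points of Hmgcs1 all lay between 26.1 and 33.4.

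Among the mevalonate enzymes, Fdps (Entrez Gene ID 110196), which makes farnesyl diphosphate, was the most abundant. Its FPKM in untreated control libraries 1 to 3 was 249.8, 251 and 251, and with LPS 86.8, 86.1 and 86.6. The groups were far apart, a change of -1.52 log2 units (SE 0.0358, adjusted p = 2.67e-13). Mvd, mevalonate diphosphate decarboxylase, was at 41.3, 40.1 and 40.3 FPKM untreated and 10.4, 12.2 and 12.6 with LPS, so every untreated library was above every LPS library (-1.71 log2 units, SE 0.0583, adjusted p = 1.08e-11). Mvk, the kinase that phosphorylates mevalonate, and Pmvk, the kinase that acts on its product, fell by 0.89 and 0.92 log2 units. Hmgcs1 (Entrez Gene ID 208715), HMG-CoA synthase, went the other way, from 27.8, 28.8 and 27.9 to 33.2, 33.1 and 33.4 FPKM. This was a small rise without overlap (0.23 log2 units, SE 0.0346, adjusted p = 3.39e-05) that kept its sign under both scalings. Idi1, the isopentenyl diphosphate isomerase, was at 26.9 ± 0.791 FPKM untreated and 25.9 ± 0.99 with LPS, overlapping groups that were not called as deposited (adjusted p = 0.272) but were called higher after median-of-ratios scaling (0.37 log2 units) and quantile normalization (0.23).

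All 11 sterol-branch enzymes from squalene onward were lower with LPS in control cells as deposited, whereas 7 were lower and 3 higher after median-of-ratios scaling and 8 and 3 after quantile normalization. Dhcr7 (Entrez Gene ID 13360), which carries out the last reduction to cholesterol, changed by the most. It was at 22.8, 24.7 and 22.1 FPKM in untreated control libraries and 2.67, 3.18 and 2.43 with LPS, 8.41-fold lower (-2.69 log2 units, SE 0.0737, adjusted p = 1.21e-12). The early enzymes Fdft1, Sqle, Lss and Cyp51 changed less than Dhcr7. Of these Sqle, Lss and Cyp51 fell more than the later Msmo1, Nsdhl and Hsd17b7. Fdft1, squalene synthase, was at 10.8 ± 0.584 and 9.60 ± 0.414 FPKM, a change of -0.16 log2 units (adjusted p = 0.0137) that turned to 0.24 after median-of-ratios scaling and was lost without untreated control library 3 (adjusted p = 0.062) or LPS control library 1 (adjusted p = 0.0528). Sqle, squalene epoxidase and a rate-limiting step, went from 45.9, 42.7 and 43.4 to 24.8, 24.2 and 24.1 FPKM, again without overlap (-0.83 log2 units, SE 0.0342, adjusted p = 7.61e-11). Lss, which closes the ring to lanosterol, and Cyp51, which takes off a methyl group, fell by 1.10 and 0.87 log2 units.

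The later sterol enzymes were graded. Ebp, the sterol isomerase, fell by 0.98 log2 units and Sc5d, the sterol desaturase, by 0.71. Msmo1, a methyl sterol oxidase, was at 58.0 ± 3.72 and 41.3 ± 0.287 FPKM (-0.48 log2 units), a change not called after median-of-ratios scaling (adjusted p = 0.291). Nsdhl and Hsd17b7, which act with Msmo1 in removing methyl groups, changed by -0.19 and -0.28 as deposited and turned upward under both scalings. Tm7sf2, a sterol reductase, was the lowest tested member at 2.97, 3.06 and 2.58 FPKM untreated and 0.93, 0.71 and 0.96 with LPS. It reached 1 FPKM in 8 libraries, the fewest of the tested members.

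All 5 SREBP regulators were lower with LPS in control cells as deposited, Insig1 turning upward after median-of-ratios scaling. Srebf1 (Entrez Gene ID 20787) was at 46.4, 48.5 and 44.8 FPKM untreated and 21.1, 20.4 and 20.7 with LPS, an even drop in every library (-1.13 log2 units, SE 0.0366, adjusted p = 6.34e-12). Srebf2 was the more abundant of the pair and went from 90.4, 91.4 and 89.0 to 56.1, 54.3 and 53.7 FPKM, a smaller change (-0.71 log2 units, adjusted p = 4.21e-10). Scap fell by 0.89 log2 units. Insig1, itself an SREBP target, and Insig2 changed least, by -0.22 and -0.47. After median-of-ratios scaling Insig1 was at 0.20 and Insig2 was no longer called (-0.08, adjusted p = 0.31).

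Of the genes that handle sterols, Acat2 (Entrez Gene ID 110460), a cytosolic thiolase that makes acetoacetyl-CoA, went from 30.2, 32.1 and 31.0 to 5.30, 5.28 and 5.92 FPKM in control cells, 5.66-fold lower (-2.31 log2 units, SE 0.0482, adjusted p = 8.66e-14). Stard4, a carrier of cholesterol between membranes, fell by 1.41 log2 units. Soat1 (Entrez Gene ID 20652), which stores cholesterol as esters, rose instead, from 39.9, 39.9 and 39.3 to 55.6, 56.0 and 55.2 FPKM. Its rise was 1.40-fold with no overlap (0.48 log2 units, SE 0.0298, adjusted p = 5.47e-09). Ch25h, the member that did not meet the condition for testing, reached 1 FPKM in 0 libraries. It was listed at 0, 0.04 and 0 FPKM in untreated control libraries and at 0.12, 0.31 and 0.12 with LPS. In shDCLK1 cells it was listed at 0 in all 3 untreated libraries and at 0.08, 0.39 and 0.2 with LPS. It thus stayed under 0.4 FPKM everywhere, and no fold is given.

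The fatty acid branch fell in every tested member, 8 of 8, as deposited and under both scalings. The desaturases led. Scd2 (Entrez Gene ID 20250), a stearoyl-CoA desaturase that makes monounsaturated fatty acids, was the most abundant member of the set. Its FPKM was 340.3, 330.3 and 329.6 in untreated control libraries and 18.9, 18.6 and 18.8 with LPS, 17.8-fold lower (-4.08 log2 units, SE 0.0252, adjusted p = 4.77e-18). Scd1, its close paralog, went from 56.9, 54.5 and 54.2 to 3.86, 3.78 and 4.29 FPKM, 13.9-fold lower (-3.50 log2 units, SE 0.048, adjusted p = 1.72e-15). How reads shared by such paralogs were divided is not stated, so the split between Scd1 and Scd2 is uncertain.

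Fads2 and Fads1 are the desaturases of polyunsaturated fatty acids. Fads2 was at 224, 213 and 213 FPKM untreated and 28.9, 27.5 and 27.2 with LPS. Fads1 fell by 2.26 log2 units, less than Elovl6. Elovl6, which lengthens palmitate, dropped close to the 1 FPKM floor, from 10.7, 10.7 and 10.4 to 1.26, 0.95 and 1.15 FPKM (-2.45 log2 units, SE 0.0562, adjusted p = 2.11e-13). Fasn, fatty acid synthase, went from 76.2, 73.3 and 68.5 to 26.06, 24.21 and 25.03 FPKM. That change (-1.50 log2 units, SE 0.0443, adjusted p = 2.58e-12) was larger than those of the steps that feed it, Acaca (acetyl-CoA carboxylase, -0.88) and Acly (ATP citrate lyase, -0.82). Of 5 adipocyte markers in the table, Lpl, which macrophages also make, held nearly all the summed level. That sum was 338 to 349 FPKM in untreated control libraries and 129 to 143 with LPS, and 330 to 357 and 222 to 249 in shDCLK1 libraries; its part in these falls was not tested. Fabp4 reached 2.05 FPKM, while Plin1, Cidec and Pparg stayed at or under 0.09 FPKM in every library.

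**Figure D2:**
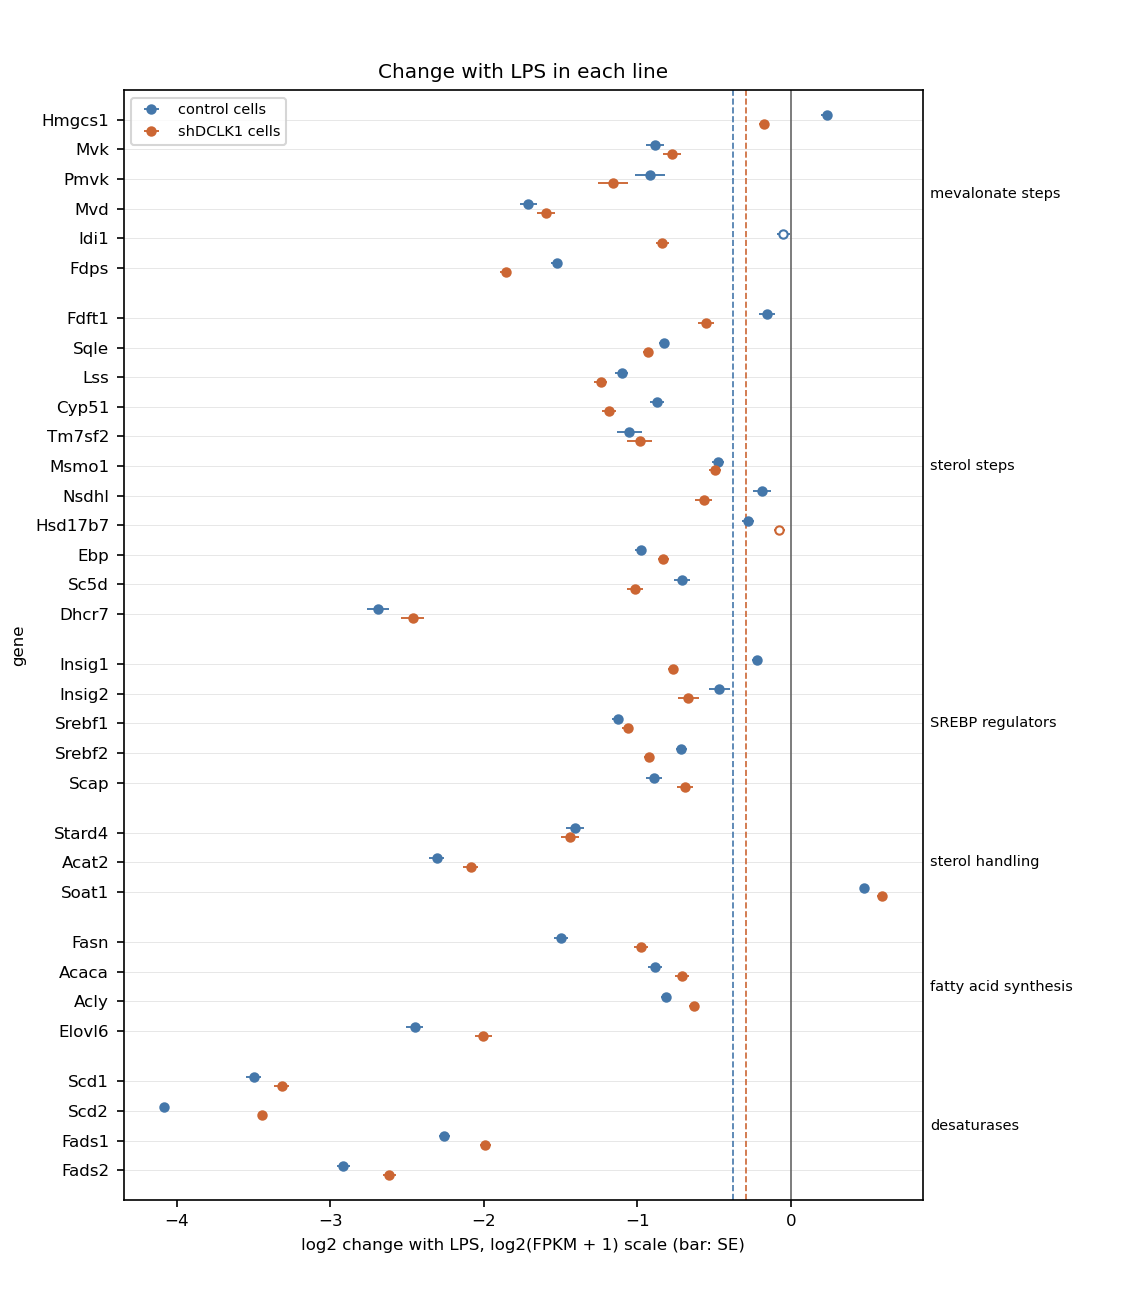
Log2 change with LPS (x axis, log2(FPKM + 1) scale, bars SE) of each tested gene, grouped by role, in control cells (blue) and shDCLK1 cells (orange); filled points were called at an adjusted p under 0.05 and dashed lines are the medians of all tested genes. Scd2 lies furthest to the left in both lines, at -4.08 and -3.44, and Soat1 lies to the right of 0 in both lines.

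The same question was put to shDCLK1 cells. The set fell there too, with 31 of 33 tested members lower and 1, Soat1, higher, against 59.7% of all tested genes lower and 24.9% higher. The median change was -0.98 log2 units, against -0.29 for all tested genes, and 15 members (45.5%, against 15.6% of all tested genes) were lower by 1 log2 unit or more. All 33 had groups that did not overlap, as 84.5% of all tested genes did. After median-of-ratios scaling 30 were lower and 3 higher, and after quantile normalization 30 and 2. Of all 11052 tested genes 4514 were lower and 4616 higher after the first scaling, and 4815 and 4240 after the second. Fdps went from 271, 249.7 and 264 to 68.1, 74.5 and 71.8 FPKM, and Acat2 from 27.3, 27.2 and 28.4 to 5.75, 6.09 and 5.43. Scd2 fell from 329, 337 and 344 to 30.3, 30.0 and 29.6 FPKM, 11.2-fold, and Scd1 from 72.1, 73.9 and 74.5 to 6.11, 6.96 and 6.39, 11.3-fold. In both stearoyl-CoA desaturases every LPS library was far below every untreated one. Dhcr7, Mvd and Lss fell by 2.46, 1.60 and 1.24 log2 units, and Stard4 by 1.44. Elovl6 went from 10.6, 11.4 and 11.5 to 2.02, 2.01 and 2.04 FPKM. Fads2 and Fads1 fell by 2.61 and 1.99, and Fasn, from 62.1, 63.5 and 67.8 to 31.6, 32.2 and 32.9 FPKM, by 0.98. Srebf1 and Srebf2 were nearer each other than in control cells, at -1.06 and -0.92. Idi1, not called in control cells, fell from 46.1, 50.4 and 45.3 to 25.9, 26.3 and 25.8 FPKM (-0.84 log2 units, SE 0.0421, adjusted p = 7.77e-10). Hsd17b7 was the member not called (-0.08 log2 units, adjusted p = 0.0724), and it was called higher under both scalings, at 0.24 and 0.31. Hmgcs1 changed by -0.18 log2 units as deposited (adjusted p = 0.000383) and by 0.15 after median-of-ratios scaling.

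The second question was how shDCLK1 cells differed from control cells. In untreated cells a few sterol genes and Soat1 were higher and most others were close. Of 33 tested members 9 were higher and 7 lower, against 21.4% and 23.6% of all tested genes, shares near those of the members. The libraries of the lines did not overlap in 19 members, against 53.8% of all tested genes. The median difference was 0.05 log2 units, against -0.02 for all tested genes. The untreated control libraries enter both this comparison and the LPS comparison in control cells, so the 2 sets of values are not independent.

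Idi1 (Entrez Gene ID 319554) differed the most between untreated lines. It was at 46.1, 50.4 and 45.3 FPKM in untreated shDCLK1 libraries against 26.9, 26.1 and 27.7 in control libraries, 1.76-fold higher (0.79 log2 units, SE 0.0421, adjusted p = 1.76e-08). With LPS the libraries of both lines lay between 25.3 and 27.1 FPKM, and the difference did not pass the test (0.00 log2 units, adjusted p = 0.939). Insig1 showed a like shape: 46.2, 44.8 and 45.1 FPKM in untreated shDCLK1 against 34.6, 34.0 and 32.9 in control libraries (0.41 log2 units, SE 0.0333, adjusted p = 8.11e-07), and 25.1, 27.1 and 26.4 against 29.4, 28.4 and 28.8 with LPS. With LPS the order of the lines for Insig1 was turned over (-0.14 log2 units, SE 0.0333, adjusted p = 0.00501). Soat1 was higher in shDCLK1 cells in both states, at 58.3, 61.3 and 57.7 FPKM untreated and 86.9, 89.5 and 91.8 with LPS. It was 1.49-fold and 1.61-fold above control cells (0.56 and 0.68 log2 units), the only tested member called higher in both states besides Scd1.

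Scd1 was at 72.1, 73.9 and 74.5 FPKM in untreated shDCLK1 libraries, above every control library (0.41 log2 units, SE 0.048, adjusted p = 2.44e-05), whereas the difference in Scd2 did not pass the test (0.01, adjusted p = 0.707). Fads1 was lower, at 94.4, 92.5 and 93.4 against 118, 115 and 115 FPKM (-0.31 log2 units, SE 0.0357, adjusted p = 2.11e-05). Among the sterol enzymes Sc5d, Nsdhl, Fdft1 and Sqle were higher by 0.27, 0.27, 0.17 and 0.15 log2 units, and Ebp lower (-0.12). The call of Fdft1 was lost without untreated control library 2 or untreated shDCLK1 library 1 (adjusted p = 0.082 to 0.0869). Hmgcs1, at 0.09 (adjusted p = 0.0413), lost its call in 7 of the 12 fits that left out a library. Srebf1, Srebf2 and Scap were slightly lower (-0.11, -0.12 and -0.14), as were Fasn (-0.17) and Acat2 (-0.17). The call of Scap (adjusted p = 0.0394) was lost after median-of-ratios scaling (adjusted p = 0.0523). It was also lost in several of the fits that left out a library. That of Srebf1 was lost without untreated control library 1 or 2 or untreated shDCLK1 library 2 (adjusted p = 0.0579 to 0.118). The 7 lower calls became 4 without untreated control library 2 and 3 without untreated shDCLK1 library 2.

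**Figure D3:**
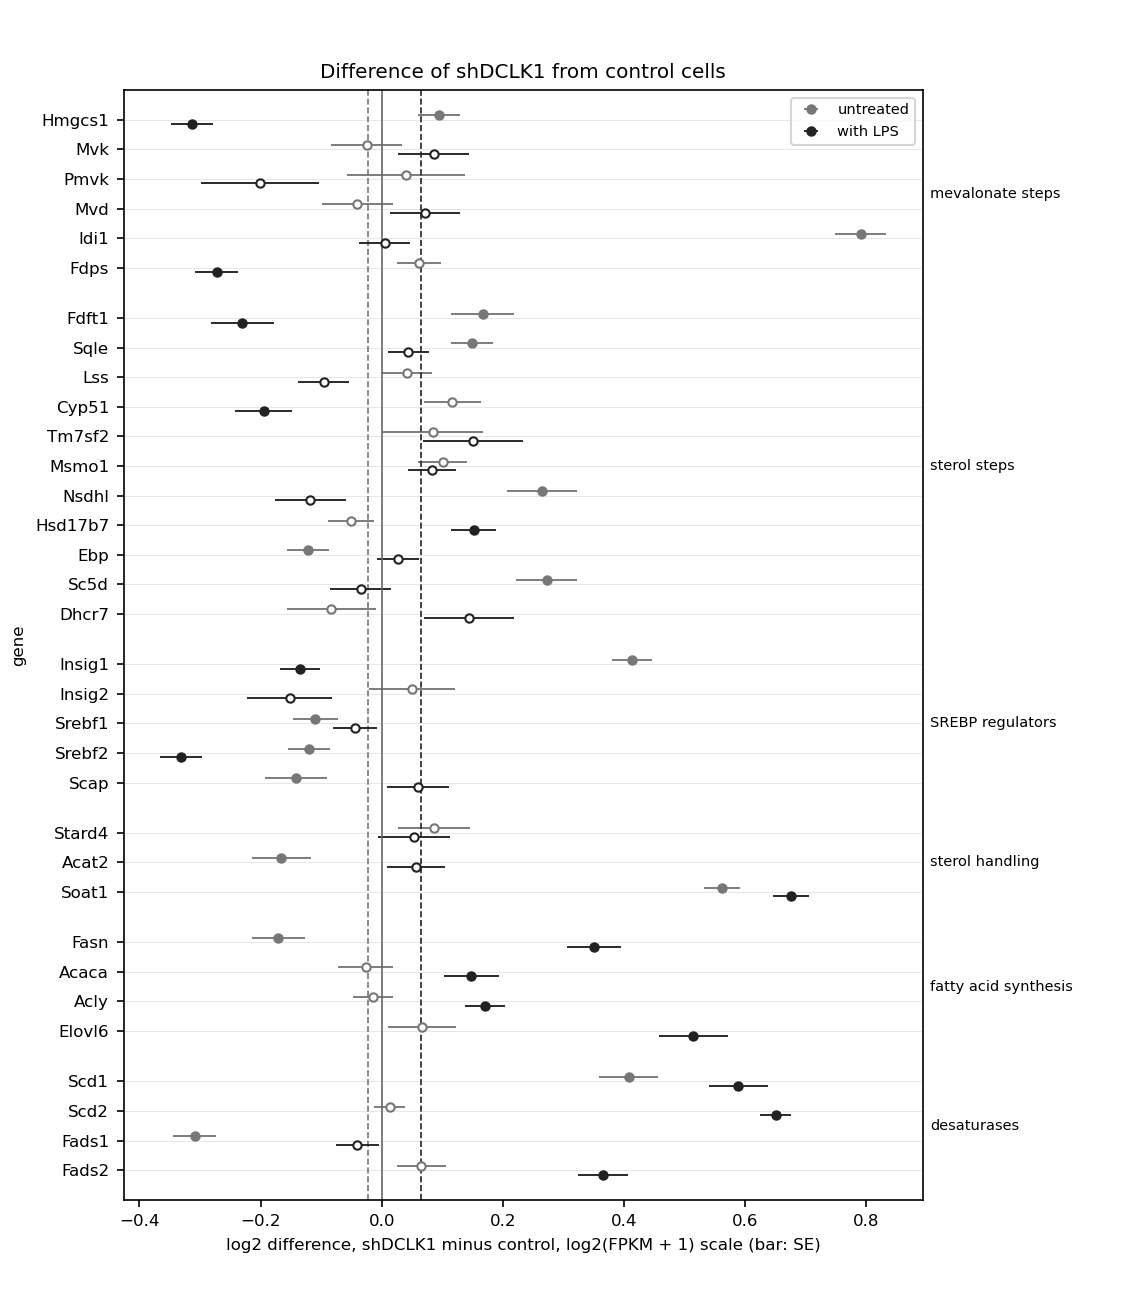
Log2 difference of shDCLK1 from control cells (x axis, log2(FPKM + 1) scale, bars SE) for each tested gene, untreated (grey) and with LPS (black); filled points were called and dashed lines are the medians of all tested genes. Idi1 stands furthest right untreated, at 0.79, and with LPS the 4 fatty acid synthesis genes all lie right of 0.

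With LPS most fatty acid genes were higher in shDCLK1 than in control cells, while most mevalonate and sterol enzymes did not pass the test. Of 33 tested members 9 were higher and 6 lower, against 34.3% and 14.3% of all tested genes, not far from the shares of the members. Of the 17 mevalonate and sterol enzymes 1 was higher, 4 were lower and 12 were not called. After either scaling 0 of them were higher and 7 lower. As deposited their median difference was 0.00 log2 units, against 0.07 for all tested genes. The libraries of the lines did not overlap in 17 members, against 57.0% of all tested genes. After median-of-ratios scaling 7 members were higher and 12 lower, and after quantile normalization 7 and 11. Of all 11052 tested genes 2688 were higher and 2736 lower after the first scaling, and 2356 and 2744 after the second. The fatty acid synthesis genes and desaturases were higher in 7 of 8 as deposited, and in 6 under either scaling, with Fads1 lower after median-of-ratios scaling (-0.12 log2 units, adjusted p = 0.0146).

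Scd2 was at 30.3, 30.0 and 29.6 FPKM in shDCLK1 libraries with LPS against 18.9, 18.6 and 18.8 in control libraries, 1.60-fold higher (0.65 log2 units, SE 0.0252, adjusted p = 1.31e-09). Scd1 stood at 6.11, 6.96 and 6.39 against 3.86, 3.78 and 4.29 FPKM, 1.63-fold. Elovl6 was at 2.02, 2.01 and 2.04 against 1.26, 0.95 and 1.15 FPKM, the widest ratio of means in the set (1.81-fold, 0.51 log2 units, SE 0.0562, adjusted p = 1.08e-05). Its control libraries lay close to the 1 FPKM floor, and its log2 difference was smaller than those of Scd2 and Scd1. These 3 genes had no overlap between lines. Fads2 and Fasn were higher by 0.37 and 0.35 log2 units. Acly and Acaca were closer, at 0.17 and 0.15, and Acaca lost its call under both scalings (adjusted p = 0.21 and 0.292).

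On the sterol side, Srebf2 was at 42.4, 44.1 and 43.3 FPKM in shDCLK1 libraries with LPS against 56.1, 54.3 and 53.7 in control libraries (-0.33 log2 units, SE 0.0348, adjusted p = 7.75e-06). Hmgcs1 was at 26.1, 26.8 and 26.8 against 33.2, 33.1 and 33.4 FPKM, lower in every shDCLK1 library (-0.31 log2 units, SE 0.0346, adjusted p = 1.2e-05). Fdps, Fdft1 and Cyp51 were lower by 0.27, 0.23 and 0.19 log2 units. Sqle, Mvd, Mvk, Dhcr7 and Sc5d did not pass the test, with differences between -0.03 and 0.14. Hsd17b7 was higher (0.15), a call lost under both scalings (adjusted p = 0.108 and 0.204).

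The interaction asks whether the change with LPS differed between lines, and a positive value means a more upward change, or a smaller fall, in shDCLK1 cells. The fatty acid branch fell less in shDCLK1 cells and part of the sterol branch fell more. The typical gene also fell less in shDCLK1 cells as deposited, with a median interaction of 0.09 log2 units over all tested genes. Of 33 tested members 13 were above 0 and 9 below, against 32.6% and 16.9% of all tested genes (49.4% in either direction). All 8 fatty acid synthesis genes and desaturases were called above 0, from 0.17 (Acaca) to 0.64 (Scd2, adjusted p = 3.34e-08). All 8 kept that sign under both scalings, with 5 called after median-of-ratios scaling and 6 after quantile normalization. Acaca and Scd1 lost their calls under both. Of the 17 mevalonate and sterol enzymes 7 were below 0 and 2 above, and after either scaling 9 were below and 0 above. Idi1 (-0.79 log2 units, SE 0.0596, adjusted p = 4.88e-07) and Insig1 (-0.55 log2 units, SE 0.0471, adjusted p = 1.42e-06) were furthest below 0. The higher untreated levels of these genes in shDCLK1 cells are part of both values. The 13 calls above 0 became 5 after median-of-ratios scaling, 6 after quantile normalization and 8 without untreated control library 1. The 9 below 0 became 12 under either scaling. Of all 11052 tested genes 2539 were called above 0 and 2616 below after median-of-ratios scaling, and 2710 and 2394 after quantile normalization.

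**Figure D4:**
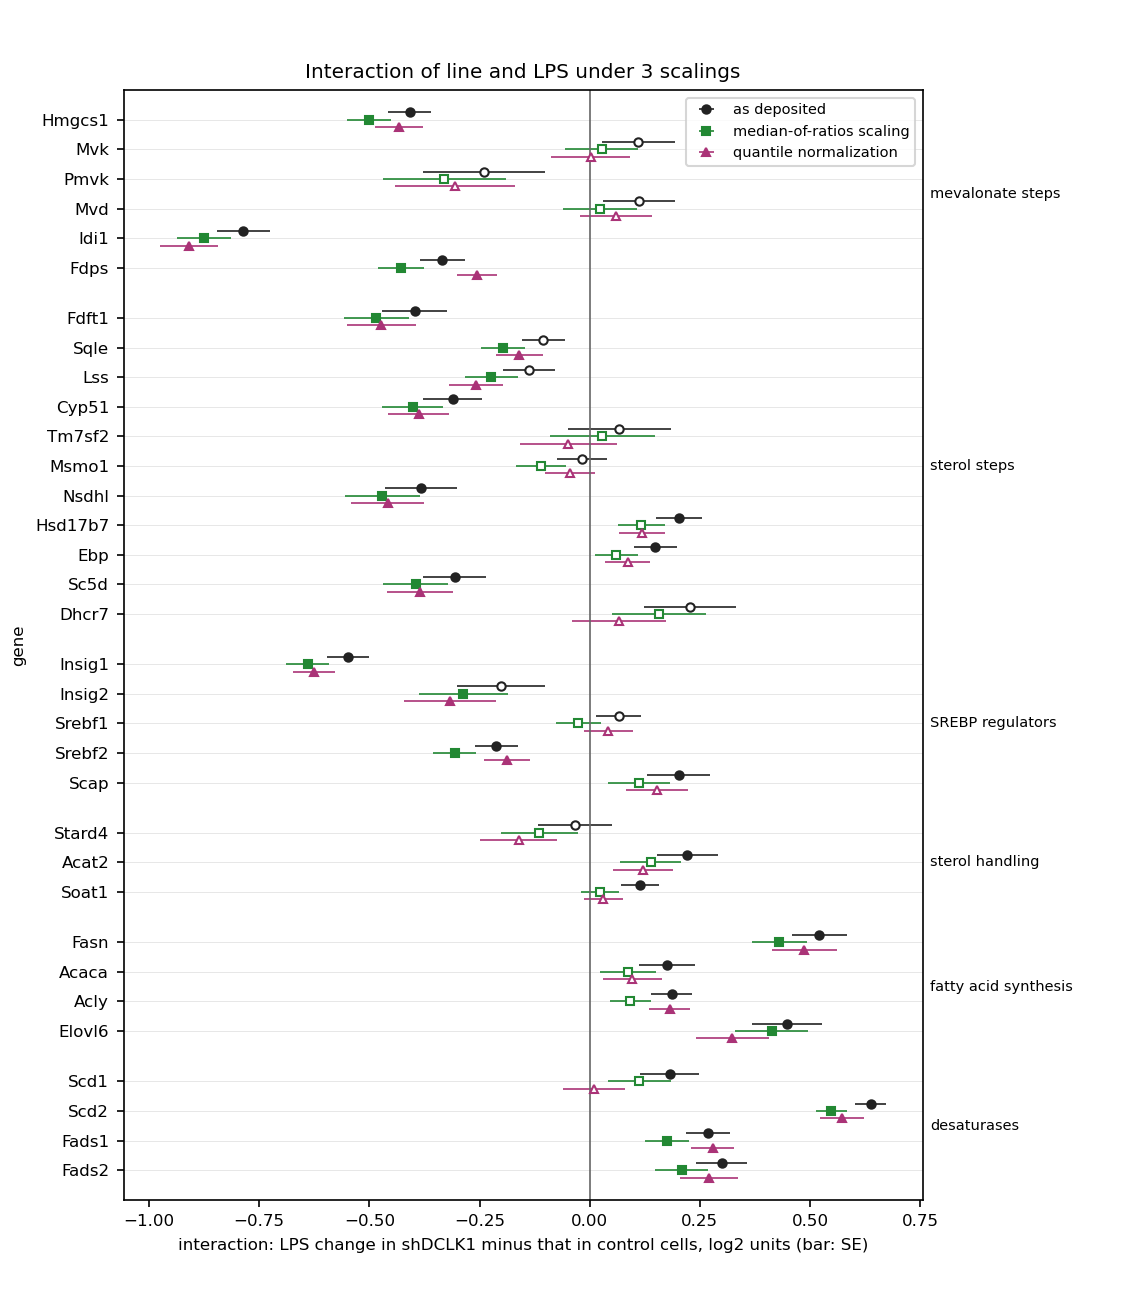
Interaction of line and LPS (x axis, log2 units, bars SE) of each tested gene, as deposited (black circles), after median-of-ratios scaling (green squares) and after quantile normalization (purple triangles); filled points were called. Scd2 and Fasn lie to the right and Idi1 and Insig1 to the left under all 3 scalings.

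The neighbouring pathways were taken from further lists. Their counts stand beside the shares of all tested genes: 62.1% lower and 24.8% higher with LPS in control cells, 59.7% and 24.9% in shDCLK1 cells, and 23.6% lower and 21.4% higher between untreated lines. After median-of-ratios scaling 4679 of 11052 tested genes were lower and 4767 higher with LPS in control cells, and 4514 and 4616 in shDCLK1 cells. After quantile normalization these counts were 4960 and 4376, and 4815 and 4240. With LPS in control cells, 12 of 18 other sterol and 12 of 19 other fatty acid genes lower as deposited are near the share of all tested genes. Of 14 tested genes that supply acetyl-CoA and NADPH, 13 were lower with LPS in control cells and 1 higher (all tested genes 62.1% and 24.8%), with a median of -0.64 log2 units (10 lower and 3 higher after median-of-ratios scaling, 11 and 1 after quantile normalization). Me2, a malic enzyme, went from 77.4 ± 2.19 to 23.3 ± 0.924 FPKM and Idh1, cytosolic isocitrate dehydrogenase, from 18.9 ± 1.32 to 5.94 ± 0.19. Idh1 was higher in untreated shDCLK1 than in control cells (0.55 log2 units, SE 0.0647, adjusted p = 2.37e-05) and Me2 lower (-0.27). In shDCLK1 cells all 14 were lower with LPS, 10 after median-of-ratios scaling and 11 after quantile normalization. The 18 other sterol and isoprenoid genes had 12 lower and 4 higher in each line, and 8 and 8 in control cells after median-of-ratios scaling. Lbr, a sterol reductase of the inner nuclear membrane, went from 85.7 ± 3.38 to 10.4 ± 0.344 FPKM in control cells (-2.92 log2 units, SE 0.0406, adjusted p = 1.94e-15). Cyb5r3, a cytochrome b5 reductase, was at 51.3 ± 1.02 against 40.6 ± 1.76 FPKM in untreated shDCLK1 and control cells (0.33 log2 units, SE 0.0371, adjusted p = 1.62e-05), where Lbr differed by -0.23.

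Genes of SREBP transport and processing were called higher in 10 of 19 and lower in 6 in control cells, and in 11 and 8 in shDCLK1 cells. After median-of-ratios scaling 16 were higher and 3 lower in each line. Sec24d, a coat protein of vesicles leaving the endoplasmic reticulum, went from 18.4 ± 0.609 to 44.5 ± 0.879 FPKM in control cells. Mbtps1, the site-1 protease that cleaves SREBPs, went down from 33.9 ± 1.68 to 16.9 ± 0.17 FPKM (-0.97 log2 units, SE 0.0477, adjusted p = 4.68e-10). Between untreated lines 2 were higher and 8 lower in shDCLK1 cells, among them Erlin2 (-0.36) and Fbxw7, a ubiquitin ligase subunit (-0.29).

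Uptake and efflux genes split in control cells, with 9 of 20 higher and 10 lower with LPS as deposited and 13 and 7 after median-of-ratios scaling. Abca1, which exports cholesterol, went from 1.17 ± 0.05 to 18.1 ± 0.709 FPKM, and Scarb1, a lipoprotein receptor, from 65.7 ± 1.52 to 8.93 ± 0.577. In untreated shDCLK1 cells 14 of the 20 were higher and 1 lower than in control cells, against 21.4% and 23.6% of all tested genes. Lrp1, another lipoprotein receptor, was at 122 ± 12.2 against 56.2 ± 3.42 FPKM (1.11 log2 units, SE 0.0696, adjusted p = 8.1e-08), and Nceh1, which hydrolyses cholesterol esters, at 11.3 ± 0.722 against 5.40 ± 0.648.

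Other fatty acid genes had 12 of 19 lower and 6 higher with LPS in control cells (7 and 9 after median-of-ratios scaling). Elovl5, a polyunsaturated fatty acid elongase, went from 85.4 ± 2.03 to 18.2 ± 0.711 FPKM, and Fabp5, a fatty acid carrier, from 24.8 ± 3.15 to 7.74 ± 0.542. Fabp5 was higher (0.60 log2 units) and Hacd2, a dehydratase of fatty acid elongation, lower (-0.54) in untreated shDCLK1 cells. Lipid droplet and triglyceride genes had 9 of 18 lower and 4 higher in control cells (6 and 11 after median-of-ratios scaling). Lpin1, a phosphatidate phosphatase, dropped from 6.43 ± 0.41 to 0.147 ± 0.0493 FPKM. Hilpda, a lipid droplet protein, climbed from 8.50 ± 0.348 to 33.7 ± 0.255 (1.87 log2 units, SE 0.0693, adjusted p = 2.51e-11). Plin2, which coats droplets, was at 25.6 ± 0.398 FPKM in untreated shDCLK1 against 14.4 ± 0.725 in control cells (0.79 log2 units, SE 0.0409, adjusted p = 1.32e-08), and Lpin3 at 2.50 ± 0.191 against 0.65 ± 0.0608.

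With LPS, shDCLK1 and control cells also differed in these lists. Of 19 SREBP processing genes 0 were higher and 8 lower in shDCLK1 cells (12 lower after median-of-ratios scaling). Uptake and efflux genes had 10 higher and 5 lower of 20 (9 and 7 after that scaling), and other fatty acid genes 11 and 2 of 19 (7 and 3). Lipid droplet and triglyceride genes had 10 higher and 0 lower of 18 (7 and 4). The supply genes had 5 higher and 1 lower of 14 (3 and 2), and the other sterol and isoprenoid genes 6 and 2 of 18 (5 and 3). Of all tested genes 34.3% were higher and 14.3% lower as deposited. After median-of-ratios scaling 2688 of 11052 were higher and 2736 lower.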

How the data were processed

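The deposited values are FPKM per gene, made by the authors, with 2 decimals and 1 column per library. Per the submitters' processing notes, the tools were StringTie 1.3.0, HISAT2 2.0 and Bowtie 0.12.2; mm9 and mm8 are listed as builds, in no stated role. Annotation, filters and strand are not given in the sources used here. The 12 columns were mapped to samples by the labels, and 1 unnamed column was not used. All 34 Entrez Gene IDs carried the same symbol in a RefSeq table.

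The 11052 genes reaching 1 FPKM in 3 or more libraries were fitted as log2(FPKM + 1) with limma 3.58.1 in R 4.3.3, with a mean per group and a mean trend, over all 12 libraries. P-values are two-sided and adjusted by the Benjamini-Hochberg method over all tested genes within a comparison. Tested on simulated data for LPS in control cells (11052 genes), the fit recovered 62% of added changes of 0.25 log2 units, 96% of 0.5 and 98% of 1. Calls counted in either direction, and 5.32% of them were false. In this simulation 50 genes per size, above a minimum level, were moved, as many up as down. All other genes were unchanged, and the noise was independent. Unlike the data it held no shift of the typical gene, so 5.32% is not the error rate of the LPS calls. Folds are ratios of mean FPKM. The 2 genes with the largest changes were named in each further list, and 1 gene this rule picks is not reported here. Alternatives were a pseudocount of 0.1, no filter, median-of-ratios scaling, quantile normalization, no mean trend, a replicate block and leaving out each library. Members and lists were chosen with earlier results of these data known. Stretches were chosen after the motifs and changes were seen. Figures were drawn with matplotlib 3.10.9.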

Additional observations from a re-analysis of the deposited data

Results flagged for a closer look

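The response to LPS differed between the lines, by the test of the interaction itself, in 22 of the 33 tested members (limma adjusted p under 0.05), against 49.4% of all tested genes. Values are the change with LPS in shDCLK1 cells minus that in control cells, in log2 units as deposited. The median over all tested genes was 0.09. In the fatty acid branch they were 0.64 for Scd2, 0.52 for Fasn, 0.45 for Elovl6, 0.30 for Fads2 and 0.27 for Fads1. They were 0.19 for Acly, 0.18 for Scd1 and 0.17 for Acaca. Acat2, Hsd17b7, Scap, Ebp and Soat1 were also above 0, at 0.22, 0.20, 0.20, 0.15 and 0.11, and all 5 lost their calls under both median-of-ratios scaling (adjusted p from 0.09 to 0.696) and quantile normalization (0.0825 to 0.609). Acaca and Scd1 lost theirs under both as well, and Acly after median-of-ratios scaling. The calls of Scd1, Soat1, Scap and Acaca were also lost in most of the fits that left out a library. That of Ebp was lost without untreated control library 1 (adjusted p = 0.0505) or untreated shDCLK1 library 2 (adjusted p = 0.0537). The values below 0 were -0.79 for Idi1, -0.55 for Insig1, -0.41 for Hmgcs1, -0.40 for Fdft1 and -0.38 for Nsdhl. Fdps, Cyp51, Sc5d and Srebf2 were at -0.33, -0.31, -0.31 and -0.21. Hmgcs1 was the member called in opposite directions in the lines, higher with LPS in control cells and lower in shDCLK1 cells as deposited; after median-of-ratios scaling it was higher in both.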

How the results depend on the processing

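Directions of small LPS changes rest on the scaling, since the typical gene fell with LPS. Median-of-ratios scaling raised the members called higher with LPS from 2 to 7 in control cells and from 1 to 3 in shDCLK1 cells, the members lower in shDCLK1 cells with LPS from 6 to 12, and lowered interactions above 0 from 13 to 5. Quantile normalization gave 6, 2, 11 and 6 for the same counts. Among all 11052 tested genes, those called higher with LPS in control cells went from 2741 to 4767 after median-of-ratios scaling. Changes with LPS in control cells that turned to called rises were those of Fdft1 (0.24 and 0.31 log2 units after median-of-ratios scaling and quantile normalization), Hsd17b7 (0.12 and 0.19), Nsdhl (0.22 and 0.20), Idi1 (0.37 and 0.23) and Insig1 (0.20 after median-of-ratios scaling). In shDCLK1 cells Hsd17b7 (0.24 and 0.31) and Hmgcs1 (0.15 after median-of-ratios scaling) turned. The cause was not tested. Leaving out each library in turn gave 3 to 7 members lower in untreated shDCLK1 cells and 8 to 12 interactions above 0. A pseudocount of 0.1 moved no member across the threshold; fitting without a filter, or without the mean trend, lost 4 calls each. Deviations of same-numbered libraries correlated between -0.107 and 0.0638, so no effect shared by libraries of the same number was visible. Whether such libraries were handled together is not stated. With a replicate block, interactions above 0 went from 13 to 10, losing Acaca, Scd1 and Soat1, and the other 9 counts of members stayed as they were. The longer SRE motif lowered the members with a match from 3 to 1. Read depth was not given, so counting error could not be set apart.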

Other observations

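Within a library, levels per length can be set against each other as a description. Srebf2 over Srebf1 was 1.94 ± 0.0535 (n = 3) in untreated control cells and 2.64 ± 0.036 with LPS, and 1.93 ± 0.0558 and 2.16 ± 0.0554 in shDCLK1 cells. The LPS libraries of the lines did not overlap in this ratio, at 2.60 to 2.66 in control and 2.11 to 2.22 in shDCLK1 cells. Scd2 over Scd1 was 6.04 ± 0.0513 in untreated control cells, and 4.73 ± 0.309, 4.58 ± 0.0323 and 4.64 ± 0.329 in control cells with LPS and in untreated and LPS-treated shDCLK1 cells. These ratios were computed after the levels were seen and were not tested.

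Summed over the 33 tested members, the level was 1849 ± 25.1 FPKM in untreated control cells and 678.5 ± 0.894 with LPS, and 1916 ± 25.3 and 713 ± 14.3 in shDCLK1 cells. The 4 desaturases made up 721 ± 15.4 FPKM of the first sum and 74.0 ± 0.479 of the second. The summed sterol-branch enzymes were at 149 ± 2.25 FPKM in shDCLK1 and 149.5 ± 2.50 in control cells with LPS, while the summed fatty acid synthesis genes were at 104.5 ± 1.81 and 88.6 ± 2.88.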
